A study of Mus musculus with 2 samples.

Results

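Calcineurin is the calcium- and calmodulin-dependent phosphatase that cyclosporine inhibits, and the 10 genes described here encode its subunits (Ppp3ca, Ppp3cb, Ppp3cc, Ppp3r1), its Rcan regulators (Rcan1, Rcan2, Rcan3) and the NFAT transcription factors it acts on (Nfatc1, Nfatc2, Nfatc3). They were chosen by name, and each symbol matched 1 of the 30385 entries in the table of reads per gene. The libraries came from hearts of wild-type (WT) mice and of MHC403/+ mice, which carry in heterozygous form a missense mutation of the cardiac myosin heavy chain that causes hypertrophic cardiomyopathy. Both groups were of the 129/SvEv strain, 8 to 16 weeks old, and both had received cyclosporine (CsA) under the skin at 15 mg/kg body weight, 2 injections a day for 2 weeks. RNA was sequenced by 5′RNA-seq, in which intact polyA RNA is not fragmented, so that reads gather near transcription starts. Biological replicates were pooled into 1 library per genotype, from an unstated number of animals, and no difference has a replicate check. With no library from mice without CsA, the drug's effect was not measured, and genotype cannot be told apart from a genotype-dependent response to the drug.

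Calcium bound to calmodulin opens the active site of calcineurin, an enzyme made of a catalytic A subunit and a calcium-binding B subunit. Active calcineurin removes phosphates from NFAT proteins, which then enter the nucleus and switch on target genes together with partners such as GATA4 and AP-1. In heart muscle this pathway is known for driving hypertrophy. Rcan proteins bind calcineurin and can restrain it, and an internal promoter of Rcan1 is itself an NFAT target, so that Rcan1 transcripts are widely used as a readout of the pathway. CsA acts by binding cyclophilin A, and the pair blocks the phosphatase.

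The bases before the annotated starts are printed for the Rcan1 starts, because Rcan1 has a constitutive and an NFAT-responsive promoter, and for 3 other genes for comparison. Sequences are from RefSeq (GRCm38.p6), a build other than the mm9 build of the table, and cover 250 bases before each start, read 5′ to 3′ along the gene. Capitals mark the NFAT core GGAAA or its reverse complement TTTCC. Windows were at hand for 7 of the 10 genes, with 12 starts in all. The distal and the internal Rcan1 start lay 66091 bases apart in RefSeq and 66069 in the deposited table.
Rcan1 distal start, chr16:92466170-92466419, minus strand: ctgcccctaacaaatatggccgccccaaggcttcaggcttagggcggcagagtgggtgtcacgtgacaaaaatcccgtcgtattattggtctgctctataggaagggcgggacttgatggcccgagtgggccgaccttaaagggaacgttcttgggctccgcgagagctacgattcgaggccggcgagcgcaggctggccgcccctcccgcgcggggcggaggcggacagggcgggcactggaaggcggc
Rcan1 internal start, chr16:92400079-92400328, minus strand: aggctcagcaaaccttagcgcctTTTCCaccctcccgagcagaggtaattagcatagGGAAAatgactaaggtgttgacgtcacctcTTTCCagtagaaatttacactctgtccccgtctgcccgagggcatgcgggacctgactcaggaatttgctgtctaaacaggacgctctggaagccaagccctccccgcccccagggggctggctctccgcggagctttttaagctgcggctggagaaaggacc
Rcan3, chr4:135433806-135434055, minus strand: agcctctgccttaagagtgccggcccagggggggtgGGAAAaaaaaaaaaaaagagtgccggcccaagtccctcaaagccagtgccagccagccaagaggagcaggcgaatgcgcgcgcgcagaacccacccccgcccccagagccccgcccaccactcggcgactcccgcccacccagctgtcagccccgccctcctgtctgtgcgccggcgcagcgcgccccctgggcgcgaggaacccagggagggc
Nfatc2 distal start, chr2:168601658-168601907, minus strand: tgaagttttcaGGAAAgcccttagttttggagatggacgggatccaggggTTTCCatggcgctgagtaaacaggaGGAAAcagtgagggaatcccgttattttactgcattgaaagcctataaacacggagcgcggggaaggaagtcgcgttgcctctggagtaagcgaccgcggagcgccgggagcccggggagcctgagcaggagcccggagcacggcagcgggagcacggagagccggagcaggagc
Ppp3cb, chr14:20546574-20546823, minus strand: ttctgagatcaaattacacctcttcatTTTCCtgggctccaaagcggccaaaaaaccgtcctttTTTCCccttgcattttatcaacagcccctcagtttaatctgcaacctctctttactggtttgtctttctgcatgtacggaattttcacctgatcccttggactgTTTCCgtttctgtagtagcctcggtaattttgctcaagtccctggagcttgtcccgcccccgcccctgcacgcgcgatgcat

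The internal Rcan1 window held 3 matches to GGAAA, at bases -227 to -223, -193 to -189 and -163 to -159 before the start, and the distal window held none. Both strands were searched, and no match to one motif overlapped a match to another in these windows. Of all 32851 RefSeq windows of this length 55.6% held at least 1 match, and 6.39% held 3 or more. The internal window also held the AP-1 element TGANTCA at -110 to -104, which 6.75% of all windows hold. The distal Rcan1 window was richer in CG dinucleotides, with 24 against 11 in the internal window and a median of 6 over all windows. The windows of Ppp3cb and the distal Nfatc2 start held 3 GGAAA matches each, as many as the internal Rcan1 window. The Rcan3 window held 1. Of the Rcan2 windows, that of start 1 held 2 GGAAA matches, and that of start 3 held the AP-1 element at -25 to -19. The TATAAA element, present in 12.4% of all windows, was found in the distal Nfatc2 window alone among the 12. These matches are letters in a sequence, with no measurement of binding here.

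**Figure D1:**
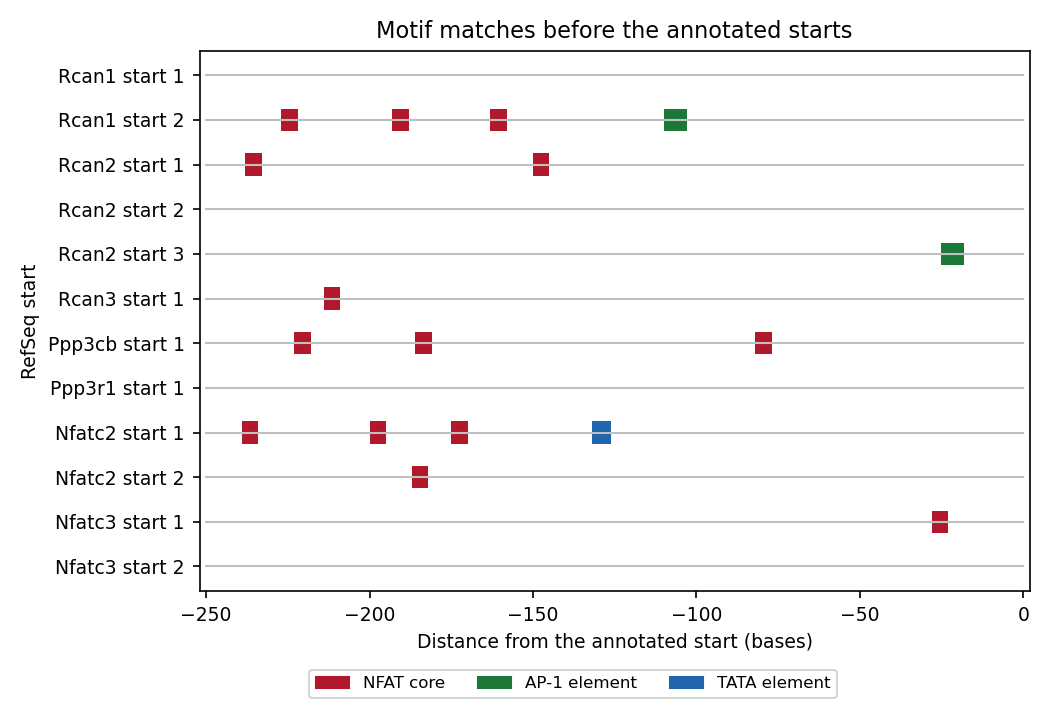
Positions of motif matches in the 250 bases before 12 RefSeq starts of 7 of the genes, in bases from the start (horizontal axis), one line per start. Red marks the NFAT core, green the AP-1 element and blue the TATA element. The internal Rcan1 start (start 2), the distal Nfatc2 start (start 1) and Ppp3cb have 3 NFAT cores each, and the distal Rcan1 start has none.

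Library totals were 5468677 reads for MHC403 and 5481123 for WT. An entry is called measured where its higher library holds 50 reads or more, and 9507 entries were, among them all 10 genes. Rcan3 and Ppp3cc reached 50 reads only in the MHC403 library. Values are RPM, reads per 1000000 reads over all entries, and ratios are MHC403 over WT with exact (Clopper-Pearson) 95% intervals that cover counting error only, not animals, pooling or amplification. The median measured entry was 1.48-fold higher in MHC403. With library totals 26.1% of measured entries were at least 2-fold higher and 2.43% at least 2-fold lower. Median-of-ratios scaling, which divides every ratio by 1.46, gave 10.9% and 7.59%. In heart tissue fewer cells of a type and less RNA per cell cannot be told apart.

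Rcan1, Rcan3, Nfatc1 and Nfatc2 passed 2-fold toward MHC403 and none of the 10 genes was lower by 2-fold, against the background of 26.1% and 2.43%. The other 6 lay within 2-fold. The median log2 ratio of the 10 was 0.65, beside 0.57 for all measured entries. Counting intervals lay wholly above a ratio of 1 for 7 genes, where 63.2% of measured entries did so, and wholly below 1 for Rcan2, where 10.3% did so. The counts of intervals thus stood near their background. With median-of-ratios scaling Rcan1 and Rcan3 were at least 2-fold higher, against a background of 10.9%.

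**Figure D2:**
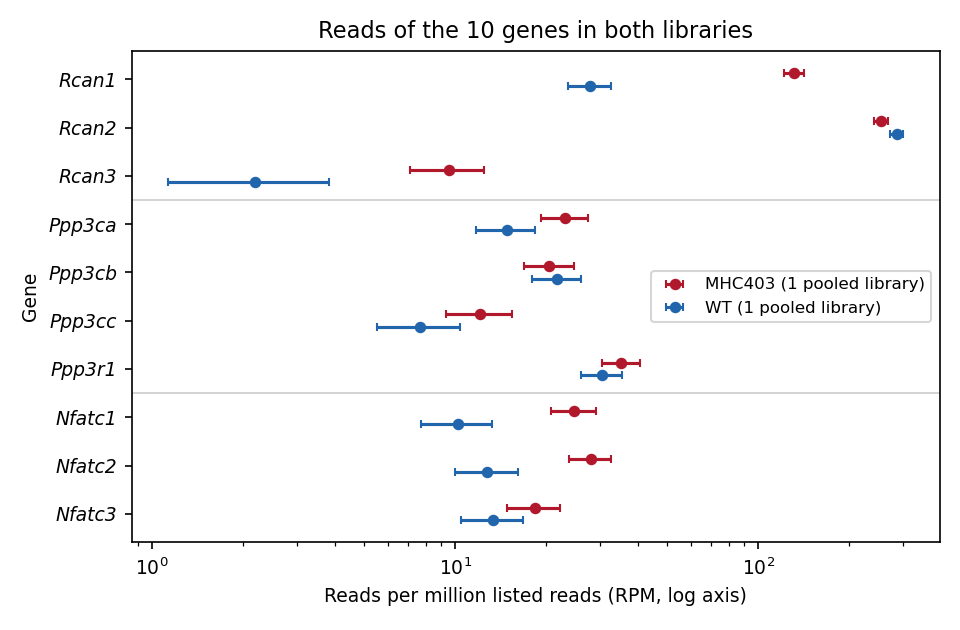
RPM (horizontal log axis) of the 10 genes in the MHC403 (red) and WT (blue) libraries, with exact 95% Poisson intervals. Rcan1 stands at 131 RPM in MHC403 and 27.9 in WT, while Rcan2 is the most read gene in both libraries.

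Among the regulators, Rcan1 (calcipressin-1, chromosome 16, 92392198 to 92466391 on mm9) had 718 reads in MHC403 and 153 in WT, that is 131 RPM (exact 95% interval 122 to 141) against 27.9 (23.7 to 32.7). The ratio was 4.70 (3.95 to 5.64), and 4.22% of measured entries had a higher one. Rcan2 (calcipressin-2, chromosome 17, 43938800 to 44176465), the paralog known for high levels in heart and brain, had 1392 reads in MHC403 and 1569 in WT, or 255 and 286 RPM. Its ratio of 0.889 (0.827 to 0.956) was below 1 under each scaling tried, and 85.8% of measured entries had a higher one. With median-of-ratios scaling the Rcan2 ratio was 0.608 (0.566 to 0.654). Rcan3 (calcipressin-3, chromosome 4, 134968224 to 134989720) was scarce, with 52 reads in MHC403 and 12 in WT, or 9.51 and 2.19 RPM. Its ratio of 4.34 had a wide interval of 2.29 to 8.94, which comes with 12 reads in WT. Rcan1 and Rcan3 were thus higher in the MHC403 library and Rcan2 lower, by an amount that depends on the scaling.

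The makeup of Rcan reads therefore differed between the libraries, a comparison that does not depend on how the libraries are scaled. Rcan1 made up 33.2% of the 2162 Rcan reads in MHC403 (exact 95% interval 31.2 to 35.2) and 8.82% of the 1734 in WT (7.53 to 10.3). Rcan2 made up 64.4% (62.3 to 66.4) in MHC403 and 90.5% (89.0 to 91.8) in WT. The odds of an Rcan read being Rcan1 were 5.14-fold (4.24 to 6.24) higher in MHC403. Summed over the family, Rcan reads were 395 RPM in MHC403 and 316 in WT, a ratio of 1.25 (1.17 to 1.33) that became 0.855 with median-of-ratios scaling. Per read of the 4 subunit genes, Rcan reads numbered 4.35 in MHC403 and 4.24 in WT, and this quotient differed by a factor of 1.03 (0.885 to 1.19). The same quotient for Rcan1 alone was 1.44 in MHC403 and 0.374 in WT, 3.86-fold (3.09 to 4.84) higher.

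The deposited table gives each gene a start-site score of unstated formula, so it is read only by rank. In the authors' deposited table the score was 26 for Rcan1 and 28 for Rcan2. Of 10483 entries with at least 20 reads in both libraries, 5.48% scored as high as Rcan1 or higher and 4.70% as high as Rcan2. Ppp3r1 scored 5, with 22.9% of these entries as high, and the other 7 genes scored 0, as did most entries, since 34.7% were above 0. The table sums reads over the 2 annotated starts of Rcan1 and the 3 of Rcan2, so the reads of each start were not measured here.

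**Figure D3:**
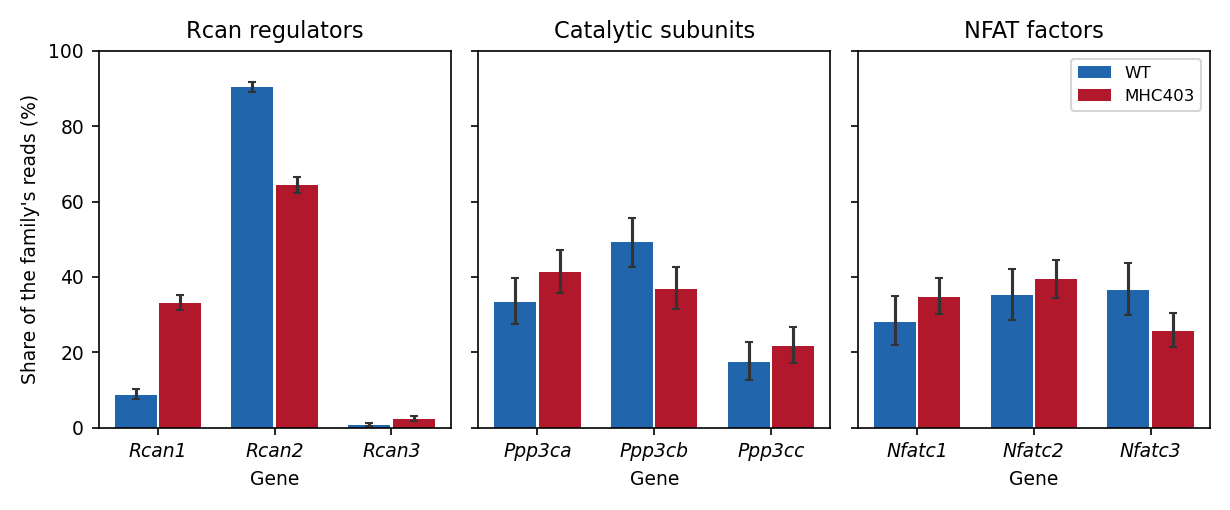
Share of each family's reads (vertical axis, %) taken by each gene in WT (blue) and MHC403 (red), with exact 95% binomial intervals as bars. Rcan1 makes up 8.82% of Rcan reads in WT and 33.2% in MHC403, and the shares of Ppp3cb and Nfatc3 are smaller in MHC403 than in WT.

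All 4 subunit genes of the phosphatase lay within 2-fold, with intervals above 1 for Ppp3ca and Ppp3cc and intervals that include 1 for Ppp3cb and Ppp3r1. Ppp3ca (catalytic A alpha, chromosome 3, 136333734 to 136598743) had 126 reads in MHC403 and 81 in WT, or 23.0 and 14.8 RPM, a ratio of 1.56 (1.17 to 2.09). Ppp3cb (catalytic A beta, the isoform whose loss is known to blunt cardiac hypertrophy in mice, chromosome 14, 21318536 to 21365795) had 112 reads in MHC403 and 119 in WT, or 20.5 and 21.7 RPM. Its ratio was 0.943 (0.722 to 1.23), which includes no difference, but with median-of-ratios scaling it was 0.645 (0.494 to 0.842), wholly below 1. Ppp3cc (catalytic A gamma, known mainly from testis, chromosome 14, 70617705 to 70689256) had 66 and 42 reads, or 12.1 and 7.66 RPM, a ratio of 1.58 (1.05 to 2.38). Ppp3r1 (regulatory B subunit, chromosome 11, 17051142 to 17100383) had 193 and 167 reads, or 35.3 and 30.5 RPM. The Ppp3r1 ratio of 1.16 (0.937 to 1.43) turned to 0.792 (0.641 to 0.981) with median-of-ratios scaling, so no direction is given for it. Ratios of Ppp3ca and Ppp3cc stood close to the median measured entry, and with median-of-ratios scaling they were 1.07 and 1.08.

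Within the catalytic subunits Ppp3cb made up 49.2% of reads in WT (42.7 to 55.7) and 36.8% in MHC403 (31.4 to 42.5). Ppp3ca made up 33.5% in WT (27.6 to 39.8) and 41.4% in MHC403 (35.9 to 47.2). Ppp3cb thus had the larger share in WT, while in MHC403 the intervals of the pair overlapped. Per kilobase of the windows around starts, given below, Ppp3cb was higher than Ppp3ca in both libraries. The Ppp3ca share of the 3 subunits had odds 1.41-fold higher in MHC403 with an interval of 0.976 to 2.03, which includes no difference. Set against Ppp3cb alone, the ratio of Ppp3ca was 1.65 times (1.11 to 2.46) as high. The 4 subunit genes together had 497 reads in MHC403 and 409 in WT, or 90.9 and 74.6 RPM, a ratio of 1.22 (1.07 to 1.39) that became 0.833 with median-of-ratios scaling.

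Ppp3cc and Ppp3r1 carry an uncertainty of read assignment. The window of Ppp3cc overlaps the entry AK006576 on the opposite strand, which had 4 reads in MHC403 and 5 in WT. Of the 36-base words in the first 600 bases of Ppp3r1 transcripts 48.2% also occur in transcripts of other genes, mostly Wdr92, an entry with 14 and 22 reads. For the other 8 genes this share was at most 5.28%, and no pair of the 10 genes shared more than 0.0225% of its words.

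Among the transcription factors, Nfatc1 (NFAT2, known from heart valve formation) had 135 reads in MHC403 and 56 in WT, or 24.7 and 10.2 RPM. Its ratio was 2.42 (1.76 to 3.36), or 1.65 (1.20 to 2.30) with median-of-ratios scaling. Nfatc2 (NFAT1, abundant in T cells and known from pressure-overloaded heart, chromosome 2, 168301910 to 168427155) had 153 and 70 reads, or 28.0 and 12.8 RPM. Its ratio was 2.19 (1.64 to 2.95), or 1.499 (1.12 to 2.02) with median-of-ratios scaling. Nfatc3 (NFAT4, a factor required for calcineurin-driven hypertrophy in mice, chromosome 8, 108582740 to 108654437) had 100 and 73 reads, or 18.3 and 13.3 RPM, a ratio of 1.37 (1.01 to 1.88). With median-of-ratios scaling the Nfatc3 ratio was 0.939 (0.688 to 1.29). Nfatc1 and Nfatc2 thus lay above the median measured entry, and Nfatc3 lay near it.

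NFAT reads together numbered 388 in MHC403 and 199 in WT, or 70.9 and 36.3 RPM, a ratio of 1.95 (1.64 to 2.33), or 1.34 with median-of-ratios scaling. The share of Nfatc3 was 36.7% in WT (30.0 to 43.8) and 25.8% in MHC403 (21.5 to 30.4). The odds of an NFAT read being Nfatc1 or Nfatc2 were 1.67-fold (1.13 to 2.45) higher in MHC403. Nfatc1 against Nfatc2 differed by a factor of 1.10 (0.709 to 1.72), within counting error. Per read of the 4 subunit genes, NFAT reads numbered 0.781 in MHC403 and 0.487 in WT, 1.60-fold (1.29 to 2.00) higher.

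Nfatc1 and Nfatc2 are also expressed by cells other than myocytes, so marker levels are given beside them. The 8 genes of the lymphocyte list summed to 36 reads in MHC403 and 14 in WT, or 6.58 and 2.55 RPM. Most of these reads, 19 in MHC403 and 9 in WT, came from Ptprc, so the sums say little about lymphocytes. Cd3d, Cd2 and Cd79b were at 0 in both libraries, Cd3g at 0 in MHC403, and Lck and Cd79a at 0 in WT. A count of 0 has an exact 95% Poisson upper limit of 0.675 RPM in MHC403 and 0.673 in WT. The 7 endothelial markers summed to 484 RPM in MHC403 and 381 in WT, a ratio of 1.27 (1.20 to 1.34), or 0.868 with median-of-ratios scaling, with none at 0. These markers went in different directions. Intervals lay wholly above 1 for 3 and wholly below 1 for 1, against 63.2% and 10.3% of measured entries. The 3 were Vwf (1.91), Pecam1 (1.84) and Cdh5 (1.31), while Kdr was at 0.715 (0.590 to 0.865). The 7 macrophage markers summed to 293 and 94.7 RPM, the 7 fibroblast markers, collagens included, to 3023 and 463 RPM, and the 8 cardiomyocyte markers to 39005 and 55790 RPM. Of the fibroblast markers the collagens Col1a1, Col3a1 and Col1a2 had ratios of 26.2, 19.8 and 15.3. The others were lower, with Lum at 3.51, Pdgfra at 2.25, Tcf21 at 1.79 and Dcn at 1.79. The cardiomyocyte markers did not all move together. Intervals lay wholly below 1 for 5 of the 8 and above 1 for 2, against 10.3% and 63.2% of measured entries. The 5 were Myh6, at 10089 and 24259 RPM with a ratio of 0.416, Pln (0.513), Tnni3 (0.582), Myl3 (0.653) and Mb (0.746). Ryr2 and Tnnt2 were at 1.01 and 1.05, and Actc1 was at 1.85. Myh6 had 55171 of the 213307 summed reads in MHC403 and 132965 of the 305791 in WT. No marker of these 4 cell types was at 0, while the brain markers Snap25, Syt1 and Gfap had 2 reads in MHC403 and 0 in WT. The part of these cell types in the ratios of the 10 genes was not tested.

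**Figure D4:**
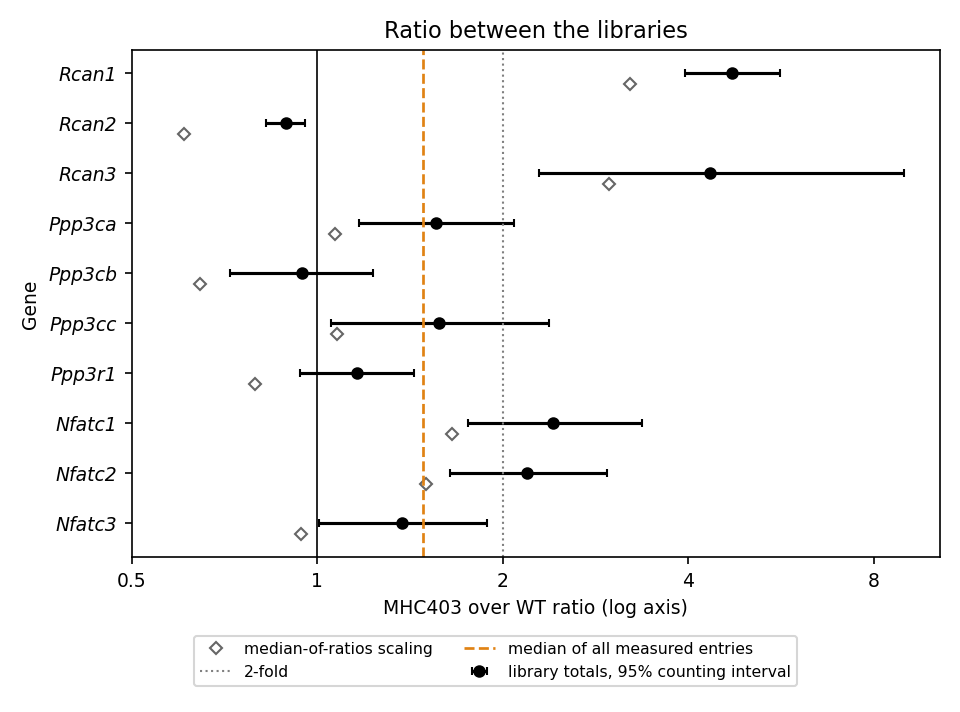
MHC403 over WT ratio (horizontal log axis) of the 10 genes with library totals (black points, exact 95% counting intervals) and with median-of-ratios scaling (open diamonds). The dashed line at 1.48 is the median of all measured entries and the dotted line 2-fold. Rcan1 at 4.70 and Rcan3 at 4.34 stand to the right of 2-fold under both scalings.

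The ratio of one gene relative to another does not depend on the scaling, and 45 pairs of the 10 genes were compared in this way, with no adjustment for their number. The 95% interval of this relative ratio did not include 1 in 28 pairs. Rcan1 and Rcan2 each took part in 8 such pairs. The share over pairs of other measured entries was not computed, so the count is not read as a trait of the 10 genes. Rcan1 differed in this sense from every gene but Rcan3, being 5.29 times (4.37 to 6.43) as high relative to Rcan2 and 4.06 times (3.07 to 5.37) relative to Ppp3r1. Relative to Nfatc1 and Nfatc2 the Rcan1 ratio was 1.95 times (1.33 to 2.82) and 2.15 times (1.51 to 3.03) as high. Rcan1 and Rcan3 differed by a factor of 1.08 with an interval of 0.513 to 2.12, so a difference within this range was not detectable at the depth of Rcan3. Rcan2 stood below every gene but Ppp3cb, from which it differed by a factor of 0.943 (0.715 to 1.24).

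Levels of different genes were set side by side as RPM per kilobase of the windows that the table lists around starts, since reads gather there, with exact Poisson intervals. Windows sum to between 200 bases in Ppp3cc and 1200 in Ppp3r1, and genes with several starts include starts that may be unused. Rcan2 was highest in both libraries, at 227 in MHC403 (215 to 239) and 255 in WT (243 to 268). Rcan1 was second in MHC403 at 164 (152 to 177) and behind Rcan2, Ppp3cb and Ppp3cc in WT at 34.9 (29.6 to 40.9), where it overlapped Ppp3cc at 38.3 (27.6 to 51.8). In MHC403 the order went on with Ppp3cc at 60.3, Ppp3cb at 51.2, Nfatc2 at 34.0, Nfatc1 at 30.9, Ppp3r1 at 29.4, Ppp3ca at 28.8, Rcan3 at 23.8 and Nfatc3 at 22.9. Neighbours from Nfatc2 down to Nfatc3 overlapped within their intervals, as did Ppp3cc and Ppp3cb. In WT the order after Rcan2 was Ppp3cb at 54.3, Ppp3cc, Rcan1, Ppp3r1 at 25.4, Ppp3ca at 18.5, Nfatc3 at 16.6, Nfatc2 at 15.5, Nfatc1 at 12.8 and Rcan3 at 5.47. There only Rcan2 from Ppp3cb, Rcan1 from Ppp3r1 and Nfatc1 from Rcan3 stood apart as neighbours.

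Other genes of the pathway, 38 in 7 lists, had a count of 2-fold differences close to the background. Of 31 measured, 7 passed 2-fold upward and none downward, against 26.1% and 2.43% of all measured entries, and their median log2 ratio was 0.64. With median-of-ratios scaling 3 were higher and none lower, against 10.9% and 7.59% of all measured entries. Calmodulin is the calcium sensor of the enzyme. The calmodulin gene Calm3 had 231 RPM in MHC403 and 120 in WT, a ratio of 1.92 (1.75 to 2.11), and Calm2 had 136 and 97.1 RPM, a ratio of 1.40 (1.25 to 1.57). The remaining NFAT genes lay within 2-fold, with Nfatc4 at 57 and 31 reads, a ratio of 1.84 (1.17 to 2.95), and the osmotic-stress factor Nfat5 at 127 and 87, a ratio of 1.46 (1.11 to 1.94). The testis B subunit Ppp3r2 had 0 reads in both libraries.

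Anchors and inhibitors of calcineurin gave 1 of 8 measured genes at least 2-fold higher and none lower, out of 11 listed, against the same background of 26.1% higher and 2.43% lower. That gene was Cib1, which anchors calcineurin at the sarcolemma, with 98 and 49 reads, a ratio of 2.00 (1.41 to 2.89). The calcineurin-homologous protein Chp, listed as 1500003O03Rik, had 390 and 201 reads, a ratio of 1.94 (1.64 to 2.32), and the LIM protein Lmcd1 214 and 120, a ratio of 1.79 (1.42 to 2.25). Myoz2 (calsarcin-1), the Z-disc protein that tethers calcineurin in heart and was chosen after its values were seen, had 3932 and 4006 reads, a ratio of 0.984 (0.941 to 1.03). Among the 9 kinases that phosphorylate NFAT and oppose calcineurin, 2 passed 2-fold upward and none downward, near the 26.1% and 2.43% of all measured entries. Dyrk2 had 115 and 31 reads, a ratio of 3.72 (2.48 to 5.72), and casein kinase Csnk1d 457 and 205, a ratio of 2.23 (1.89 to 2.65). Csnk1a1 lay within 2-fold at 1.69 (1.40 to 2.05), and only Dyrk2 passed 2-fold with median-of-ratios scaling.

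Against 26.1% of measured entries higher and 2.43% lower by 2-fold, none of the 6 partner and substrate factors passed 2-fold. Among them Mef2d, a factor activated by calcineurin, was at 1.74 (1.55 to 1.96), the NFAT partner Gata4 at 1.56 (1.36 to 1.79) and the coactivator Crtc2 at 1.67 (1.29 to 2.16). Both immunophilins that carry calcineurin-blocking drugs were more than 2-fold higher with library totals, against 26.1% of all measured entries. With median-of-ratios scaling both were under 2-fold. Cyclophilin A, Ppia, the binding partner of CsA, had 353 RPM in MHC403 and 123 in WT, a ratio of 2.87 (2.63 to 3.14). Fkbp1a, the partner of the drug FK506, had 202 and 74.1 RPM, a ratio of 2.73 (2.43 to 3.07). Of 5 genes known as calcineurin or NFAT targets 2 were measured, and both were higher under each scaling. They were the natriuretic peptide gene Nppb, with 8632 and 996 reads, a ratio of 8.69 (8.13 to 9.28), and the muscle enzyme gene Adssl1, with 1269 and 418 reads, a ratio of 3.04 (2.72 to 3.41). The other 3 were scarce, with Ptgs2 at 12 and 0 reads, Trpc6 at 7 and 0 and Trpc1 at 17 and 8. Against a floor of 3 counts per library Ptgs2 was 4.01-fold higher, with a lower counting limit of 2.07.

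**Figure D5:**
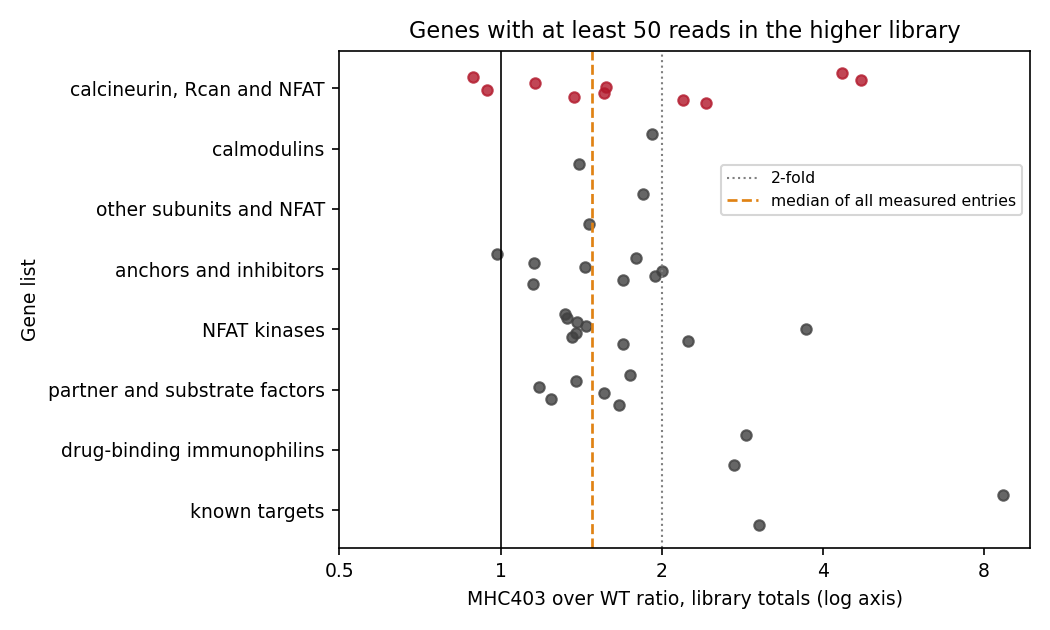
MHC403 over WT ratio with library totals (horizontal log axis) of each measured gene, with 1 point per gene and 1 line per gene list. The 10 calcineurin, Rcan and NFAT genes are in red, the dashed line at 1.48 is the median of all measured entries and the dotted line 2-fold. Most kinases and partner factors lie near the dashed line, with Nppb farthest to the right.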

How the data were processed

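Heart RNA of WT and MHC403/+ mice was compared in 1 pooled library per genotype, which leaves no test between genotypes. The authors deposited whole-number read counts for each gene, per the file headers. The deposited normalized reads were RPM over all listed entries, the deposited fold is their ratio, and the deposited p-value and start-site score come from methods that no source used here states. The p-values were not used. Per the submitters' processing notes, TopHat 1.0.14 and mm9 were used. For the counting program and its use of strand the sources used here give nothing.

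Ratios of reads scaled to library totals and their exact intervals were computed over the whole table with Python 3.11.15 and SciPy 1.17.1. The computation was run on simulated Poisson counts. These hold counting error only, so the simulation says nothing about spread between animals, pooling or amplification. A gene with 50 reads on each side has an interval of 0.662 to 1.51 around 1. Alternatives were DESeq2 1.42.0 median-of-ratios and edgeR 4.0.16 TMM scaling, totals without mitochondrially encoded entries, other read minimums and other fold thresholds. The 10 genes, the pathway lists and the marker lists were chosen with earlier results of these data known, and some listed genes are not reported here. From each pathway list up to 3 genes were named, those whose interval had its nearer bound farthest from 1. Known targets under the read minimum could be named also, as reads, and Myoz2 was named outside this rule. The symbol Chp was matched through RefSeq synonyms. Word sharing used GENCODE M21 transcripts. Nfatc1 is given without position, and promoter windows of Nfatc1, Ppp3ca and Ppp3cc were not used here.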

Additional observations from a re-analysis of the deposited data

How the results depend on the processing

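The ratios have a limit that no setting removes, since 1 pooled library per genotype gives no spread between animals. No paired analysis was possible because each genotype has 1 library and the labels give no replicate numbers. Relative to library totals, median-of-ratios scaling lowered every log2 ratio by 0.55, TMM by 0.55 and totals without mitochondrially encoded entries by 0.29. In this order Rcan1 had a ratio of 3.22, 3.22 and 3.84 in place of 4.70, Ppp3r1 turned to 0.792, 0.794 and 0.945, and Nfatc3 turned to 0.939 and 0.941 and stayed at 1.12. The number of the 10 genes at least 2-fold higher was 2, 2 and 2 in place of 4. Their intervals above 1 numbered 4, 4 and 4 in place of 7. Pathway genes past 2-fold, all upward, numbered 3, 3 and 5 in place of 7. Of all 9507 measured entries 1033, 1040 and 1528 were at least 2-fold higher in place of 2483, and 722, 718 and 400 lower in place of 231. Intervals lay above 1 for 2812, 2824 and 4257 entries in place of 6013. A minimum of 200 reads left 2 of the 10 genes, of which 1 was at least 2-fold higher and 1 had an interval above 1. Without a minimum 12 pathway genes passed 2-fold, 11 upward and 1 downward (Akap5, with 2 reads in MHC403 and 12 in WT). At 1.5-fold 16 did so, and with the whole interval past 2-fold 5 did so, beside 2 of the 10 genes. None of the 10 was 2-fold lower under any of these settings. For the other read minimums and fold thresholds no share over all entries is given, so these counts cannot be read against a background. The 1.5-fold threshold lies close to the median measured entry, at 1.48. The shares of Rcan1, of Ppp3ca, and of Nfatc1 with Nfatc2 do not depend on scaling, and their odds stayed within the counting interval when the family was drawn otherwise. For Rcan1 this only left out the few reads of Rcan3, so its odds could move little. For Ppp3ca the odds went from 1.41 (0.976 to 2.03) to 1.65 (1.11 to 2.46) against Ppp3cb alone. Whether the Ppp3ca interval includes 1 thus depends on the family drawn. At the depth of Rcan3, with 12 reads in WT, the size of its ratio is known only within a wide range.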

Other observations

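Calmodulin also acts through kinases that, like calcineurin, pass calcium signals to transcription, in part by driving class IIa histone deacetylases out of the nucleus. A list of 14 such genes was drawn up after the values of the 10 genes were known, and 8 were measured. Of these 2 were at least 2-fold higher in MHC403 and none lower, against 26.1% and 2.43% of all measured entries. Median-of-ratios scaling left 1 on each side, against 10.9% and 7.59%. Camkk2, an upstream kinase, had 121 reads in MHC403 and 40 in WT, a ratio of 3.03 (2.10 to 4.45), and Camk1 had 793 and 288, a ratio of 2.76 (2.41 to 3.17). The 2 measured CaMKII genes went in opposite directions with library totals. Camk2d, the main form in heart, had 472 and 285 reads, a ratio of 1.66 (1.43 to 1.93), while Camk2a had 201 and 322 reads, 1.60-fold (1.34 to 1.92) lower. Of the 4 class IIa deacetylase genes, all measured, Hdac7 had 374 and 209 reads, a ratio of 1.79 (1.51 to 2.13), while the intervals included 1 for Hdac4, with 55 and 46 reads, Hdac5, with 344 and 329, and Hdac9, with 55 and 58. Camk2g was not analysed here.

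Store-operated calcium entry is a known source of the calcium that activates calcineurin. Of 8 genes of this entry pathway and of IP3 receptors, a list also drawn up after those values were known, 7 were measured, with 2 past 2-fold upward and none downward, near the 26.1% and 2.43% of all measured entries. The store sensor Stim1 had 115 reads in MHC403 and 37 in WT, a ratio of 3.12 (2.13 to 4.64), and the channel gene Orai1 had 93 and 40, a ratio of 2.33 (1.59 to 3.47). With median-of-ratios scaling 1 of these genes, Stim1, was at least 2-fold higher, against 10.9% of all measured entries. The IP3 receptor genes Itpr1 and Itpr2 had ratios of 1.03 (0.735 to 1.45) and 0.757 (0.548 to 1.04), and Itpr3, with 52 and 28 reads, had a ratio of 1.86 (1.15 to 3.06).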
